A study of Tupaia belangeri with 6 samples.

Results

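Immediate early genes were examined in RNA-seq of the prefrontal cortex (PFC) of 6 Chinese tree shrews (Tupaia belangeri). The set comprised 10 genes: FOS, FOSB, JUNB, EGR1, EGR2, EGR3, EGR4, ARC, NPAS4 and NR4A1. A gene counted as measured when a locus of the gene abundance tables carried exactly its symbol, and symbols of gene-like copies were not accepted. By this rule 8 of the 10 genes were found, each as a single locus, among 95863 loci, of which 22608 carry a symbol. EGR2 and NR4A1 were found under no locus, nor under a gene-like copy.

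Immediate early genes are transcribed within minutes of a stimulus from factors that are already present in the cell, such as CREB, SRF with its ELK partners, and MEF2, so that no new protein is needed. In cortical neurons, calcium entry through glutamate receptors and voltage-gated channels activates the kinases that reach these factors, and the transcripts decay quickly once activity stops. Most members encode transcription factors that act on later genes, whereas ARC encodes a protein that works at the synapse.

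The samples came from separate adult animals, 3 females (numbered 1, 3 and 4) and 3 males (numbered 1, 4 and 5), with no experimental treatment named for either sex. Every animal was anesthetized with isoflurane and then with ketamine and pentobarbital before the brain was taken, and the interval from handling to freezing is not given in the sources used here. In the study's sample list the males are older than the females, and sex and age cannot be told apart. Levels are in TPM (transcript abundance scaled by transcript length and to the library total), and the tables give no read counts, so no counting interval was computed. TPM summed to 950532 to 971492 per library, and 19899 to 27108 loci reached 1 TPM. Loci to which no strand was assigned took 5.16%, 2.67% and 7.88% of TPM in males 1, 4 and 5, against 2.30% to 3.33% among the females. The 6 excitatory neuron markers found were above 0 in every library, with SLC17A7, the vesicular glutamate transporter of cortical projection neurons, at 783 to 1569 TPM. In bulk tissue, fewer cells expressing a gene and less RNA per cell cannot be told apart.

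The AP-1 factors FOS, FOSB and JUNB form dimers that bind a shared DNA element. FOS, on chromosome 4 (TS_3.0, 37326054 to 37329462, plus strand), was at 92.1, 69.8 and 23.0 TPM in females 1, 3 and 4 and at 78.3, 30.1 and 18.8 TPM in males 1, 4 and 5. High and low animals occurred in both sexes, with male 1 between females 1 and 3 and the other males near female 4, and the highest value was 4.90 times the lowest. FOSB, whose shortened splice form is the long-lived ΔFosB protein, lies on chromosome 27 (21920195 to 21926974, plus strand). It was at 34.3, 47.7 and 16.6 TPM in females 1, 3 and 4 and at 31.0, 21.4 and 16.2 TPM in males 1, 4 and 5. The FOSB order placed female 3 on top, and female 4 and male 5 at the bottom, with a range of 2.95 times. Values are sums over a locus, so its splice forms were not separated. JUNB, a Jun family partner of the FOS proteins, is also on chromosome 27 (5046564 to 5050131, minus strand) and was at 82.4, 68.6 and 37.2 TPM in females 1, 3 and 4. In males 1, 4 and 5 JUNB was at 28.0, 45.3 and 17.5 TPM. Unlike for FOS and FOSB, male 1 was among the lower animals for JUNB, and only male 4 reached into the female range.

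**Figure D1:**
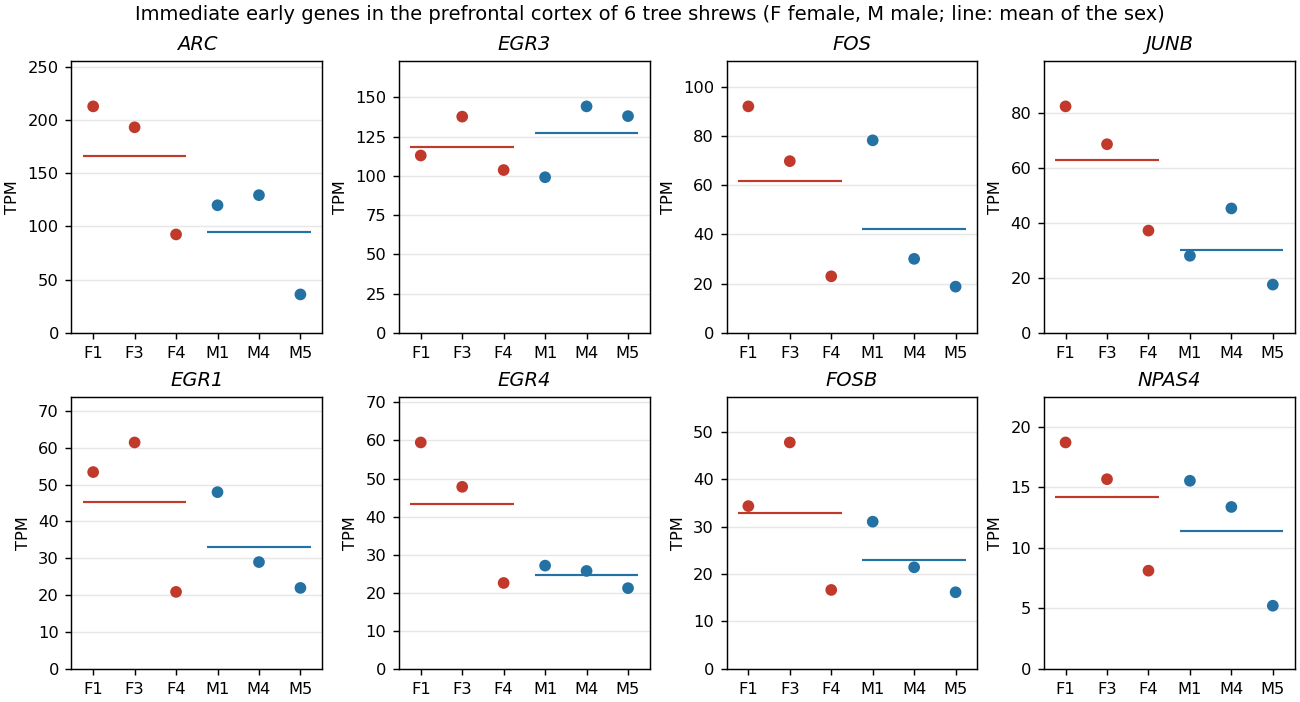
TPM of the 8 measured immediate early genes in each animal, 1 panel per gene with its own axis from 0, with females (F1, F3, F4) in red, males (M1, M4, M5) in blue and a line at the mean of each sex. The sexes overlapped for each gene, female 4 and male 5 were the 2 lowest animals for 6 genes, and EGR3 stayed between 99.1 and 144.3 TPM.

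The EGR zinc finger factors bind GC-rich sites in promoters, and EGR1 (also called Zif268) is widely used as a mark of recently active neurons. EGR1, on chromosome 18 (24822931 to 24831261, plus strand), was at 53.4, 61.4 and 20.9 TPM in females 1, 3 and 4 and at 48.0, 29.0 and 22.0 TPM in males 1, 4 and 5. Female 4 and male 5 differed little and formed the low end, and the range was 2.94 times. EGR4, on chromosome 11 (52343306 to 52347858, plus strand), was at 59.5, 47.8 and 22.6 TPM in females 1, 3 and 4 and at 27.1, 25.7 and 21.2 TPM in males 1, 4 and 5. For EGR4, females 1 and 3 stood above the other 4 animals, which lay close together.

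EGR3, which is needed for muscle spindle development and is induced in active cortex, did not share this pattern. Its locus on chromosome 25 (4502827 to 4574188, plus strand) was at 113.0, 137.8 and 103.7 TPM in females 1, 3 and 4 and at 99.1, 144.3 and 138.1 TPM in males 1, 4 and 5. Male 5, the lowest animal for 6 other members, was the second highest for EGR3, and the range was 1.46 times. The SD of log2(TPM + 1) over the 6 animals was 0.23 for EGR3, and 13.9% of the 30238 genes tested had a smaller one. The locus is 71362 bp long, the longest of the 8, and overlaps 4 others, among them PPP3CC, a calcineurin subunit gene with a mean of 80.4 TPM. The library protocol names no step that keeps the strand, so reads of genes that overlap on opposite strands cannot be told apart. The ratio of TPM to mean coverage at the EGR3 locus was 8.55 to 10.2 times the most frequent ratio of the library, against at most 1.08 times at 6 other members and 2.99 to 3.95 times at NPAS4. With coverage scaled per library in place of TPM, EGR3 had a mean of 13.3 ± 2.93 (SD, n = 6) in place of 122.7 ± 19.7 TPM, and NPAS4 a mean of 3.98 ± 1.64 in place of 12.8 ± 5.11 TPM. The part of this ratio in the EGR3 pattern was not tested.

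NPAS4, a neuron-specific factor induced by calcium entry that regulates inhibitory synapses, was the lowest of the 8 genes. Its locus on chromosome 17 (52473487 to 52494244, minus strand) was at 18.7, 15.7 and 8.12 TPM in females 1, 3 and 4 and at 15.5, 13.4 and 5.22 TPM in males 1, 4 and 5. Males 1 and 4 lay between female 3 and female 4, and the mean coverage behind these values was 2.17 to 8.69 reads per base. ARC, the only effector among the members, encodes a capsid-like protein that promotes the removal of AMPA receptors from synapses. On chromosome 13 (1609585 to 1614423, plus strand), ARC was at 212.9, 193.2 and 92.5 TPM in females 1, 3 and 4 and at 120.0, 129.5 and 36.1 TPM in males 1, 4 and 5. ARC had the widest range in TPM, 5.89 times, with females 1 and 3 above all others and male 5 far below them. This rested on male 5, without which ARC ranged over 2.30 times and FOS had the widest range.

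EGR2, a paralog of EGR1 known from myelination and hindbrain patterning, and NR4A1, an orphan nuclear receptor also called Nur77, had no value by name. An antisense RNA named after EGR2 is listed on chromosome 14 (62881113 to 62888918, minus strand) at 0 TPM in each of the 6 libraries. RefSeq lists both EGR2 and NR4A1 as protein-coding genes in another tree shrew assembly, TupChi_1.0, with ADO and NRBF2 beside EGR2. Between the loci named NRBF2 and ADO on chromosome 14, 6 loci are listed, and 0 of them were unnamed loci with a strand and a mean of at least 1 TPM. No level is given here for EGR2 or NR4A1.

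By mean TPM the order was ARC (130.7 ± 65.1, SD, n = 6), EGR3 (122.7 ± 19.7), FOS (52.0 ± 31.7), JUNB (46.5 ± 24.7), EGR1 (39.1 ± 17.4), EGR4 (34.0 ± 15.8), FOSB (27.9 ± 12.2) and NPAS4 (12.8 ± 5.11). Each neighbouring pair was compared by the mean over animals of their difference in log2(TPM + 1), called the log2 ratio here. Only 2 steps exceeded their own SD and held in 6 of 6 animals, from EGR3 to FOS (1.46 ± 1.07) and from FOSB to NPAS4 (1.07 ± 0.36). With coverage scaled per library, EGR3 would stand between FOSB (26.9) and NPAS4, so its place in the order depended on the measure. On that scale, with nothing added before the logarithm, the log2 ratio of FOSB to NPAS4 was 2.76 ± 0.37, again in 6 of 6 animals. The size of this step thus depended on the measure as well, although the 2 values also differ in the added 1. With scaled coverage, ARC exceeded EGR3 in 6 of 6 animals (3.02 ± 1.02). In TPM, ARC exceeded EGR3 in 3 of 6 animals (log2 ratio −0.093 ± 0.98). Among FOS, JUNB, EGR1, EGR4 and FOSB, neighbours were not separated from each other. Their log2 ratios were 0.080 ± 0.76, 0.19 ± 0.61, 0.18 ± 0.35 and 0.27 ± 0.34 in turn, with the order held by 4, 4, 4 and 5 animals.

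Summed over the 8 genes, expression was 666 TPM in female 1, 642 in female 3, 325 in female 4, 447 in male 1, 439 in male 4 and 275 in male 5. Without EGR3 the sums ran from 137.0 TPM in male 5 to 553 TPM in female 1, a range of 4.04 times that was 2.50 times without male 5. Male 5, the animal with the lowest sum, also had the largest share of TPM at loci without strand (7.88%), whereas male 1, with the next largest (5.16%), had the third highest sum. The part of this share in the levels was not tested.

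**Figure D2:**
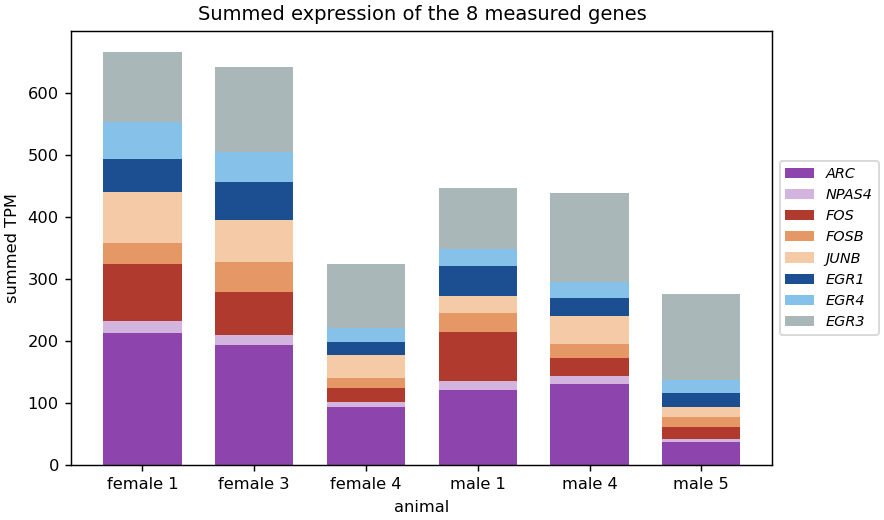
Summed TPM of the 8 measured genes in each animal, with each stacked segment giving the TPM of 1 gene. The sum ran from 275 TPM in male 5 to 666 TPM in female 1, and EGR3 (grey, on top) made up 17.0% of the sum in female 1 and 50.2% in male 5 (2.32% and 10.9% with coverage scaled per library).

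The makeup of the sum also differed among animals. ARC made up 26.8% to 32.0% of it in 5 animals and 13.1% in male 5. These shares depended on the measure, since with coverage scaled per library EGR3 made up 2.32% to 5.44% of the sum in 5 animals and 10.9% in male 5, and ARC 33.4% to 41.9% and 23.3%. FOS took its largest share, 17.5%, in male 1, where the ratio of FOS to JUNB was 2.79. In the other animals this ratio lay between 0.618 in female 4 and 1.12 in female 1, so male 1 stood apart in the balance of the AP-1 genes. FOSB relative to FOS was lowest where FOS was highest, at 0.373 in female 1 and 0.396 in male 1, and highest in male 5 (0.860). FOS is the denominator of this ratio, so the ratio is not independent of its level. Between the genes that neurons induce most selectively, ARC exceeded NPAS4 by 11.4 to 12.3 times in the females and by 6.92 to 9.68 times in the males, a difference that was not tested. With coverage scaled per library the ratio was 32.0 to 34.5 in the females and 19.4 to 28.8 in the males.

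Across the 6 animals most members varied together. Pearson's r of log2(TPM + 1) was positive for 23 of the 28 pairs among the 8 genes (82.1%), with a median of 0.808. Over the pairs of all 30238 genes tested, 50.7% were positive and 4.02% reached the member median. For pairs of 4075 named genes with at least 5 TPM on average and an SD of at least 0.3, shares were 55.7% and 7.13%. These are floors and not a match to the members, and EGR3, with an SD of 0.23, would not pass them. EGR3 was set apart after its values were seen, and the 21 pairs of the other 7 genes, a choice that itself favors high values, had r from 0.649 to 0.983 with a median of 0.833. Each point of such a correlation is 1 library, so library composition and dissection are shared by the genes of a pair. After the mean of each sex was taken out, the 21 values stayed positive (0.636 to 0.984, median 0.831). Without the 2 animals farthest from the median of the first gene they were positive as well, but ran down to 0.0660 (median 0.786). Over the 28 pairs, the median r was 0.734 without the 2 animals farthest in the first gene of each pair. It was 0.787 with TPM rescaled over loci with a strand. It was 0.909 over the 4 animals left without males 1 and 5, the libraries with the largest share of TPM at loci without strand. The p-values given for single pairs are unadjusted, and 28 pairs were computed.

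EGR1 and FOSB were the closest pair (Pearson's r = 0.983, exact permutation p = 0.00278; Spearman's rho = 0.943, exact permutation p = 0.0167). Leaving out the 2 farthest animals gave r = 0.957 for EGR1 and FOSB, and r within sexes was 0.984. FOS followed EGR1 (r = 0.959, exact permutation p = 0.0236; rho = 0.771, exact permutation p = 0.103) more closely than it followed JUNB. For FOS and JUNB, r was 0.649 (exact permutation p = 0.182; rho = 0.657, exact permutation p = 0.175), and 0.636 within sexes. Over the 4 animals left without the 2 farthest, whose removal also narrows the range of FOS, r was 0.0660, so no relation of FOS and JUNB was shown beyond those animals. The difference in r between FOS with EGR1 and FOS with JUNB was not tested.

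JUNB was closest to ARC (r = 0.925, exact permutation p = 0.00694; rho = 0.943, exact permutation p = 0.0167), with 0.914 within sexes and 0.782 without the 2 farthest animals. ARC and NPAS4 had r = 0.947 (exact permutation p = 0.00417; rho = 0.943, exact permutation p = 0.0167), with 0.983 within sexes and 0.773 without the 2 farthest animals. EGR4 and NPAS4 ranked the 6 animals identically (rho = 1, exact permutation p = 0.00278), although r was 0.766 (exact permutation p = 0.0681). The 7 pairs with EGR3 had r between −0.329 and 0.0346, with a median of −0.089, and between −0.278 and 0.289 within sexes. Over the 4 animals left without the 2 farthest, these 7 values ran from −0.742 to 0.676 (median −0.505). For ARC and EGR3, r went from −0.155 to 0.676, with the 2 animals farthest in ARC left out. The other pairs left out the 2 animals farthest in EGR3, and their r ran from −0.742 to −0.359. The 2 sets of animals differ, so these values do not show whether the relation of EGR3 with the other members was stable.

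**Figure D3:**
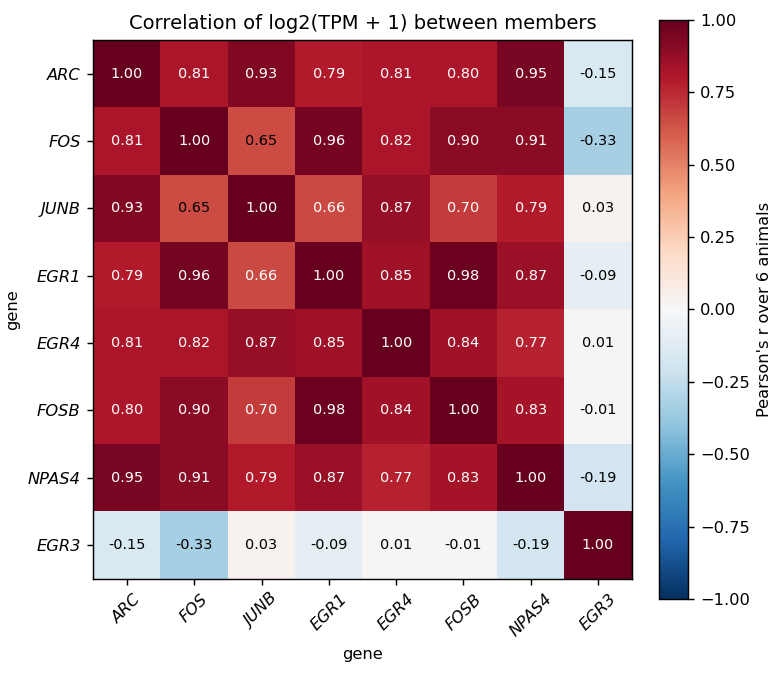
Pearson's r of log2(TPM + 1) over the 6 animals for each pair of measured genes (color scale from −1 to 1), with EGR3 placed last. The 21 pairs without EGR3 lay between 0.649 and 0.983, and the 7 pairs with EGR3 between −0.329 and 0.0346.

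Against the mean of the other standardized members, r was 0.917 for FOSB, 0.909 for EGR1, 0.899 for EGR4, 0.892 for ARC, 0.887 for NPAS4, 0.847 for FOS, 0.829 for JUNB and −0.11 for EGR3. Among the 30230 other genes tested, 284 (0.939%) had r of at least 0.9 with the mean of the 8 members, and the median r was 0.0298. Most members also varied more among animals than the median gene. The median SD of log2(TPM + 1) over animals was 0.648 for the members, 0.486 for all genes tested and 0.325 for the 11322 genes with a mean of at least 5 TPM. Without male 5 these medians were 0.585, 0.434 and 0.312. FOS (0.97), ARC (0.91) and JUNB (0.80) had the largest SDs over the 6 animals, and 7 of the 8 members exceeded both medians.

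Whether these genes differed between the sexes was asked with limma on log2(TPM + 1), with Benjamini-Hochberg adjustment over 30238 genes. By limma with this adjustment, 5 of the genes tested (0.0165%) passed an adjusted p of 0.1, and 0 of the 8 members did. At an unadjusted limma p under 0.05 there were 1522 genes (5.03%), and 1 of the 8 members, JUNB. The female and male values did not overlap for 2980 genes (9.86%), but overlapped for each of the 8 members. The median female minus male difference was 0.50 for the members and −0.029 for all genes tested, and 7 of the 8 members were positive, against 46.9% of all genes tested. Most members varied together over the same animals, so these signs are not 8 separate observations. Among the 11322 genes with a mean of at least 5 TPM, 56.4% were positive, with a median of 0.045. The member median was 0.18 without male 5, the lowest animal, and 0.97 without female 4, the lowest female.

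JUNB averaged 62.7 ± 23.1 TPM (SD, n = 3) in females and 30.3 ± 14.0 TPM in males. This gave a log2 difference of 1.05 (standard error 0.38, 95% interval 0.17 to 1.93, limma adjusted p = 0.926 with Benjamini-Hochberg adjustment), and an exact permutation test gave p = 0.2, where 3 animals against 3 cannot go below 0.1. ARC averaged 166.2 ± 64.6 TPM in females and 95.2 ± 51.4 TPM in males, with a log2 difference of 0.91 (interval −0.23 to 2.05) that became 0.32 without male 5. EGR4 averaged 43.3 ± 18.9 TPM in females and 24.7 ± 3.09 TPM in males, and its log2 difference of 0.69 (interval −0.079 to 1.45) likewise included 0. The differences of FOS (0.57, interval −0.79 to 1.93), FOSB (0.43, −0.45 to 1.32), EGR1 (0.38, −0.59 to 1.35) and NPAS4 (0.34, −0.68 to 1.36) also had intervals that included 0. Single animals moved these differences widely. Leaving out 1 animal at a time, the difference ranged from 0.12 (without male 5) to 1.15 (without female 4) for FOS, from 0.11 (without female 3) to 0.84 (without female 4) for FOSB and from 0.095 (without female 3) to 0.85 (without female 4) for EGR1. That of EGR4 ranged from 0.41 (without female 1) to 1.09 (without female 4). For JUNB it ranged from 0.72 (without male 5, standard error 0.37) to 1.38 (without female 4). EGR3 had a difference of −0.096 (interval −0.56 to 0.37). For the members other than JUNB, the limma adjusted p (Benjamini-Hochberg) was between 0.926 and 0.971 and the exact permutation p between 0.3 and 0.7. Without male 5 the difference of NPAS4 was −0.097, and without male 4 that of EGR3 was 0.0038. These intervals leave room for differences of more than 1 log2 unit in most members, so similar expression in the sexes was not shown.

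**Figure D4:**
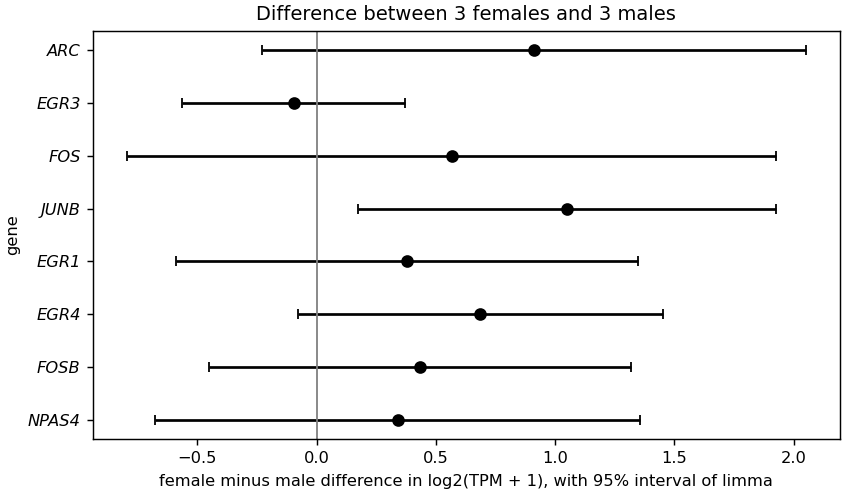
Female minus male difference in log2(TPM + 1) for each measured gene (point) with its 95% interval from limma (bar), 3 females against 3 males. The interval of JUNB (0.17 to 1.93) lay above 0 before adjustment over all genes, and the other 7 included 0.

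Blood transcripts were higher in the females of the same samples. The summed TPM of the 5 blood genes found of 10 listed was 1275 to 2542 in females and 62.7 to 101.2 in males, and 2 of the 3 tested, the hemoglobin genes HBG and HBQ1, passed the limma threshold. The 3 oligodendrocyte genes found of 6 had sums of 348 to 482 TPM for females against 80.7 to 235.6 TPM for males, with 0 of 3 past the adjusted threshold and 2, MAG and MOG, higher in females at an unadjusted limma p under 0.05. Against the member mean, r was 0.426 to 0.561 for the 3 tested blood genes and 0.414 to 0.752 for the 3 oligodendrocyte genes, and their part in the member differences was not tested.

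A list of 41 other rapid genes, mostly primary response transcription factors and inhibitors, had 29 found and 28 tested. By limma 0 of 28 passed the adjusted threshold and 0 had an unadjusted p under 0.05. With the member mean, 26 of 28 had a positive r, with a median of 0.606, and 1 reached 0.9. For comparison, r was positive for 52.0% of the 30230 other genes tested, and for 68.2% of 4075 named genes outside the lists that had a strand, at least 5 TPM on average and an SD of at least 0.3 (median r 0.211). BTG2, an antiproliferative cofactor, had the highest r (0.929) and was at 21.6, 15.6 and 4.58 TPM in females 1, 3 and 4 and at 15.7, 9.64 and 4.61 TPM in males 1, 4 and 5. BTG2 thus placed male 1 with females 1 and 3, and female 4 with male 5, as FOS, FOSB and EGR1 did. CSRNP1, a nuclear transcriptional regulator, had r = 0.899, and GADD45G, a growth arrest and DNA damage inducible gene, had r = 0.838.

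NR4A2, a paralog of the unmeasured NR4A1, was at 21.8, 9.30 and 3.69 TPM in females 1, 3 and 4 and at 6.34, 1.85 and 1.44 TPM in males 1, 4 and 5. NR4A2 had the widest range of the list, 15.1 times, r = 0.824 with the member mean, and a female minus male difference of 1.48 (limma adjusted p = 0.926, Benjamini-Hochberg). NR4A3, the remaining paralog, was highest in male 1 (15.3 TPM) and lowest in female 4 (3.99 TPM), with r = 0.561; it was named after its value was seen. Of the AP-1 family, FOSL2 had r = −0.031 and was highest in male 5 (56.5 TPM), whereas FOSL1 had r = 0.630 and JUN r = 0.581, both named after their values were seen. The clock gene PER1 had the lowest r of the list (−0.036) and ranged over 1.33 times, from 977 to 1296 TPM. PPP1R15A, a phosphatase subunit of the stress response, had r = 0.135. DUSP6, the phosphatase that inactivates ERK, ran against the direction of most members between the sexes, with a difference of −0.61 (limma adjusted p = 0.931, Benjamini-Hochberg).

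Of 18 activity-regulated effectors, 15 were found and tested. By limma 0 passed the adjusted threshold and 1, NPTX1, had an unadjusted p under 0.05. The median r with the member mean was 0.426, with 11 of 15 positive. That count is near the 68.2% positive among the 4075 named genes (52.0% of all other genes tested). NPTX1, a secreted pentraxin that clusters AMPA receptors, was the closest (r = 0.898), at 540, 618 and 384 TPM in females 1, 3 and 4 and at 358, 377 and 302 TPM in males 1, 4 and 5. Its range of 2.05 times was narrower than that of 7 members. CPLX2, a regulator of vesicle fusion, had r = 0.699, and ACAN, the core protein of perineuronal nets, had r = 0.661. RHEB, the GTPase that activates mTOR, had r = −0.70 but ranged over 1.22 times. HOMER1, a postsynaptic scaffold gene whose short form is activity-induced, had r = −0.23 and was highest in male 5 (97.2 TPM), and NRN1 had r = −0.22.

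The regulators that act before the members in the pathway, such as kinases, calcineurin, CREB, SRF partners, MEF2 and NAB corepressors, comprised 24 genes with 19 found and tested. By limma 0 of 19 passed the adjusted threshold and 2 had an unadjusted p under 0.05, both higher in females. The ribosomal S6 kinase gene RPS6KA1, which acts after ERK, was at 39.7, 47.0 and 34.9 TPM in females 1, 3 and 4 and at 23.1, 19.4 and 6.85 TPM in males 1, 4 and 5 (difference 1.40, limma adjusted p = 0.926, Benjamini-Hochberg). NAB2, a corepressor that binds EGR proteins, had a difference of 0.75 with the same limma adjusted p after Benjamini-Hochberg adjustment. The median r with the member mean was 0.501, and 18 of 19 were positive, against 68.2% of the 4075 named genes. MAP2K1 (MEK1) had r = 0.803, CAMK2B r = 0.788 and RPS6KA1 r = 0.735. MEF2C had r = 0.173 and the widest difference toward males, −0.73, and CRTC1, a CREB coactivator, also had r = 0.173. CAMK4, a nuclear calcium-dependent kinase that phosphorylates CREB, was the exception in sign (r = −0.37).

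**Figure D5:**
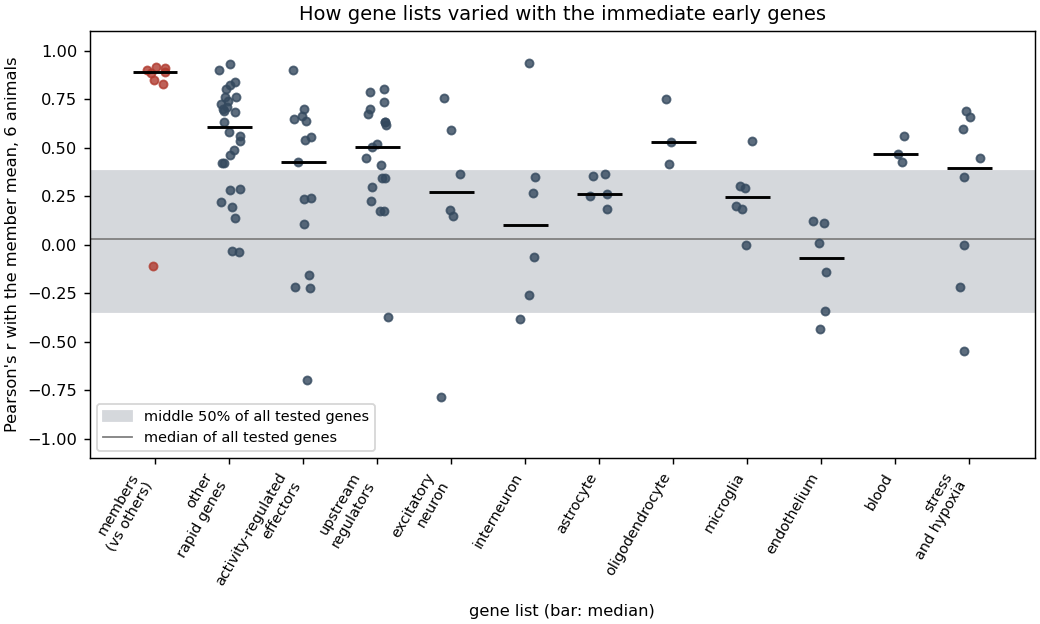
Pearson's r over 6 animals between each gene and the mean of the standardized members (for the members, the mean of the others), by gene list, with a bar at each list's median, a line at the median of all tested genes (0.0298; 0.211 for the 4075 named genes of at least 5 TPM) and a grey band over their middle 50% (−0.348 to 0.382). The medians were 0.606 for the other rapid genes, 0.501 for the upstream regulators and 0.426 for the effectors, and EGR3 was the sole member near −0.11.

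Among cell type markers, the median r with the member mean was 0.272 for 6 excitatory neuron genes, 0.102 for 6 interneuron genes, 0.260 for 5 astrocyte genes, 0.246 for 6 microglia genes and −0.069 for 6 endothelium genes. None of these lists held a gene past the limma adjusted threshold, and their unadjusted p was under 0.05 for 1, 0, 1, 0 and 1 genes in that order. Single markers departed from their list. SLC32A1, the vesicular GABA transporter, had r = 0.938 and was at 170.5 TPM in female 4 and 367 TPM in female 3, whereas PVALB had r = −0.39. SLC17A6, a glutamate transporter gene weakly expressed in cortex, had r = 0.757, and NEUROD6 r = −0.78. The 8 stress and hypoxia genes found of 12 had a median r of 0.398, with 0 past the limma adjusted threshold and 1, HSPB1, at an unadjusted p under 0.05. HSPA1L (r = 0.687), DNAJB1 (r = 0.657), a co-chaperone gene lowest in male 5 at 25.3 TPM, and DDIT4 (r = 0.597) were the closest to the member mean. HSPB1, a small heat shock protein gene, was highest in male 5 (249.5 TPM, against 67.5 to 121.4 TPM in the others), with r = −0.55.

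Outside the lists, 4075 genes with a symbol, a strand, a mean of at least 5 TPM and an SD of log2(TPM + 1) of at least 0.3 were ordered by r with the member mean over the 6 animals. Their median r was 0.211, and 61 (1.50%) reached 0.9. TRIM31, a ubiquitin ligase gene on chromosome 3, was the closest (r = 0.981), at 14.7, 14.1 and 2.57 TPM in females 1, 3 and 4 and at 5.85, 4.93 and 2.70 TPM in males 1, 4 and 5. The next 7 were PRRG1 (0.979), INSM1 (0.979), a zinc finger factor of neuroendocrine cells, SMIM1 (0.978), LEPROT (0.977), FABP3 (0.970), a fatty acid binding protein, STAT5A (0.969) and DOC2B (0.966), a calcium sensor of vesicle release. INSM1 had 20.1 TPM in female 3 and 6.11 TPM in male 5, and the range among these 8 genes was from 1.97 times for LEPROT to 5.71 times for TRIM31. At the other end, r was −0.95 for CFAP100, −0.94 for FKBP10, −0.92 for NOS3, the endothelial nitric oxide synthase, and −0.92 for COL19A1. COL19A1, a collagen gene, was at 3.53, 4.35 and 7.54 TPM in females 1, 3 and 4 and at 4.42, 5.76 and 11.5 TPM in males 1, 4 and 5, highest in male 5, where the member mean was lowest. With 6 animals and this many genes ordered, these values describe likeness in these libraries alone.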

How the data were processed

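RNA-seq of PFC from 3 female and 3 male tree shrews was analysed. The authors enriched polyadenylated RNA, mapped reads to TS_3.0 with HISAT2 2.2.1 and assembled, merged and quantified transcripts with StringTie 2.2.1 (versions as in the submitters' processing notes). The deposited tables give, per locus, TPM, FPKM (a library-wise multiple of TPM) and coverage (mean signal per base, not scaled for depth), without read counts. The count test of the study therefore could not be repeated. Here, rows of the same gene ID and chromosome were summed with Python 3.11.15 (pandas 2.3.3, numpy 2.4.6, scipy 1.17.1; plots with matplotlib 3.10.9), and log2(TPM + 1), a scale that understates changes of low genes, was tested between the sexes by limma 3.58.1 (R 4.3.3) with variances moderated along mean expression.

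A locus entered the test when 3 or more animals reached 0.1 TPM, outside the male-only segments that the study removed, with Benjamini-Hochberg adjustment over all of them and a threshold of 0.1. Exact permutation tests were two-sided. The script was tested on simulated data. The member mean is the mean over 8 members of standardized log2(TPM + 1). TPM keeps no depth, so the precision rests on the spread among animals. The members and gene lists (other rapid genes, effectors, upstream regulators, cell type, blood and stress markers) were chosen with earlier results of these data known. Named genes were the members; per list, the 3 with the largest difference and the 3 with the highest and lowest r with the member mean, of which a selection is given; and the 8 most and 4 least correlated other genes. Alternatives changed the pseudocount, filter, scaling, unit, summing of rows, trend, adjustment set, replicate block and animals included. No sequences are shown, because no sequence tables were used here, and DNA methylation was not analysed here.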

Additional observations from a re-analysis of the deposited data

How the results depend on the processing

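The count of members past the adjusted threshold of limma (Benjamini-Hochberg) was 0 under each of the alternatives run, with member adjusted p-values of at least 0.472, and 146 of 152 member differences (19 alternatives for each of 8 genes) kept their sign. Changes of filter, trend, adjustment set and summing of rows cannot alter a member's difference, so in those alternatives the sign was fixed in advance. The median member difference of 0.50 turned to −0.087 in the fit with the animal number as a replicate block, where FOS (−0.071), EGR1 (−0.15), FOSB (−0.10) and NPAS4 (−0.20) also turned. The others kept their sign there, at 0.62 for JUNB (standard error 0.43), 0.46 for EGR4, 0.17 for ARC and −0.14 for EGR3. The sexes share only numbers 1 and 4, so the block fit compares females 1 and 4 with males 1 and 4. Female 3 and male 5 do not enter its differences, so the turned signs describe fewer animals and not a pairing. Deviations of same-numbered animals correlated at −0.0047 and 0.038, so the numbers give no pairing. With each animal left out, the median difference ranged from 0.18 to 0.97, the difference of EGR3 ranged from −0.26 to 0.0038 (without male 4) and that of NPAS4 from −0.097 (without male 5) to 0.67. The median r over the 28 pairs of members was 0.808, and leaving out each animal gave 0.747 (without female 1) to 0.857 (without male 1). It was 0.909 without males 1 and 5, the libraries with the largest share of TPM at loci without strand, and 0.819 with coverage scaled per library. Over the 15 pairs left without EGR3 and NPAS4, the median was also 0.819. These 3 alternatives were chosen after seeing the data. Over all genes, 5 were called in the limma fit as reported, 8 with a filter at 1 TPM, 3 with FPKM, 3 with the block, 2 without the trend, 1 with scaled coverage and 3 to 7 without 1 animal, and the cause was not tested. Quantile normalization moved the median difference of all genes from −0.029 to 0.11, and that of the members to 0.55. TPM gives no read depth. NPAS4 had the lowest mean coverage of the members, and how far depth limits each member was not compared.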

Other observations

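In RefSeq's TupChi_1.0 assembly, NR4A1 lies between TAMALIN (named GRASP in the tables used here) and ATG101, with KRT80 beyond. Between the loci named GRASP and KRT80 on chromosome 6 of TS_3.0, 7 loci are listed. An unnamed locus on the minus strand (48915052 to 48938052, 23001 bp) was at 155.3, 136.8 and 49.0 TPM in females 1, 3 and 4 and at 119.2, 91.6 and 40.6 TPM in males 1, 4 and 5. Its r with the member mean was 0.960 over 6 animals, and its female minus male difference was 0.41 (standard error 0.50, limma adjusted p = 0.944 with Benjamini-Hochberg adjustment). This locus was chosen after its values were seen, its sequence was not examined, and it was not taken as NR4A1. An unnamed locus on the plus strand that overlaps its end (48905811 to 48915461) had a mean of 7.81 TPM.

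The tables list 12 noncoding RNAs whose identifiers carry the symbol of a member, 7 of them around FOS. Of these 12, 10 were at 0 TPM in all 6 animals. LINC-FOS-5 was at 0.0879 TPM in female 4 and at 0 in the other animals. LINC-FOSB-1, which lies just before FOSB on the opposite strand of chromosome 27 (21915295 to 21919841), was at 0.306, 0 and 0.198 TPM in females 1, 3 and 4 and at 0, 0 and 3.46 TPM in males 1, 4 and 5. Its highest value was thus in male 5, the animal with the lowest FOSB.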
